A study of Mus musculus with 12 samples.

Results

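Adult-only regions are stretches of the mouse autosomes that lay in a listed H3K9me3 peak in adult livers of both genotypes and in no listed peak of newborn livers. They were found by marking every base of the 19 autosomes with the lists that cover it, keeping the bases present in both adult lists and in none of the 4 neonatal lists, and keeping unbroken intervals of 500 bp or more. This gave 16437 intervals over 16.6 Mb, drawn from 1509802 autosomal peaks in 6 lists. The cover of the adult lists and its absence from the neonatal lists are what chose the intervals, so both are given as descriptions only.

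H3K9me3 had been profiled by ChIP-seq, the sequencing of DNA that an antibody to a histone mark pulls down, in C57BL/6 mouse liver at post-natal day 1 (P1), day 5 (P5) and in the adult. Alb-D2KO animals carried a floxed Dio2 gene and Cre driven by the albumin promoter, and controls carried Cre. The albumin promoter is active in hepatocytes, so other liver cells keep Dio2, the gene for the D2 deiodinase that makes the active thyroid hormone T3. Each combination of genotype and age had 1 H3K9me3 library and 1 input library. Chromatin of P1 and P5 came from pools of 3 livers and that of adults from single animals, so pooling and age cannot be told apart. Read counts and expression were not part of the lists, so the depth was unknown and the cell types in the tissue could not be checked with markers. In whole liver, fewer cells that carry the mark and less of the mark per cell cannot be told apart either.

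H3K9me3, the trimethylated lysine 9 of histone H3, is laid down by enzymes such as SUV39H1, SUV39H2 and SETDB1 and is bound by HP1 proteins. It is the classic mark of constitutive heterochromatin at pericentromeric repeats, and it also covers transposons, clustered zinc finger genes and, in differentiated cells, genes of other lineages. The liver makes blood cells in the fetus and still does around birth, while hepatocytes make up most of the adult liver by mass.

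The intervals that ranked 2 and 3 by the smaller of their 2 adult folds over input serve as examples of adult-only sequence. The one ranked 3 had the same folds as another interval of the same peak. The listed fold is a mean over the whole broad peak, 17.4 to 52.5 kb wide here, and both example intervals touched a neonatal peak. Their middle 200 bases are given here from the GRCm38 reference, plus strand, with CG pairs in capitals.
chr8:129294292-129294491: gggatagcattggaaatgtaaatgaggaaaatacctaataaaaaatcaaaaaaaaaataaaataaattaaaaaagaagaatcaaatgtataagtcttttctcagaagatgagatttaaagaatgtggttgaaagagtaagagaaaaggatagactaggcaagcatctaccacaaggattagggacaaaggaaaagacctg
chr13:74413659-74413858: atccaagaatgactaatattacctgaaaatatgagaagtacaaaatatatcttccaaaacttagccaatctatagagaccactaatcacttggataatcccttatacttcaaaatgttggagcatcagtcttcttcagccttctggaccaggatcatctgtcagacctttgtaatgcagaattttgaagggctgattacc
Both were intergenic, at 30% and 36.5% G and C. Both held 0 CG pairs, and they are examples only. The middle 50 bases of each occurred 1 time on the autosomes.

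The 3 widest intervals all lay in an intron of Wwox, and the middle 200 bases of one of them are given as an example, in the same build and strand and with the same use of capitals.
chr8:115326125-115326324: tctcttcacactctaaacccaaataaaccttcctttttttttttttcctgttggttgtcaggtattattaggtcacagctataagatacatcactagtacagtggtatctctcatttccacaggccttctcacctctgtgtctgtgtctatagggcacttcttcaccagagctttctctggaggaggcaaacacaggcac
This stretch was 42.5% G and C and held 0 CG pairs, fewer than wide intervals hold on average (given with the base composition), with 28.5% of the bases soft-masked as repeats in the reference. As in the first set, its middle 50 bases were found 1 time on the autosomes.

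Most adult-only intervals were short. The median width was 778 bp (quartiles 614 and 1062), and 904 intervals (5.5%) were 2 kb or wider. A long tail went with them, since 132 intervals were 5 kb or wider, 40 were 10 kb or wider and the widest was 37062 bp. These 132 intervals held 7.67% of all adult-only bases. The same rule turned to P1, which asks for both P1 lists and none of the other 4, gave 10296 intervals over 7.83 Mb, and turned to P5 it gave 11604 over 8.74 Mb. None of these was 5 kb wide, and the widest were 3903 bp at P1 and 3437 bp at P5. Bases shared by P1 and P5 were cut out of both sets, so their widths are not a like measure beside those of the adult-only set. Bases in all 4 neonatal lists and in neither adult list formed 34529 intervals over 33.4 Mb, of which 15 were 5 kb or wider and 0 were 10 kb or wider. Bases in all 6 lists formed 35874 intervals over 56.5 Mb with a maximum of 123644 bp.

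**Figure D1:**
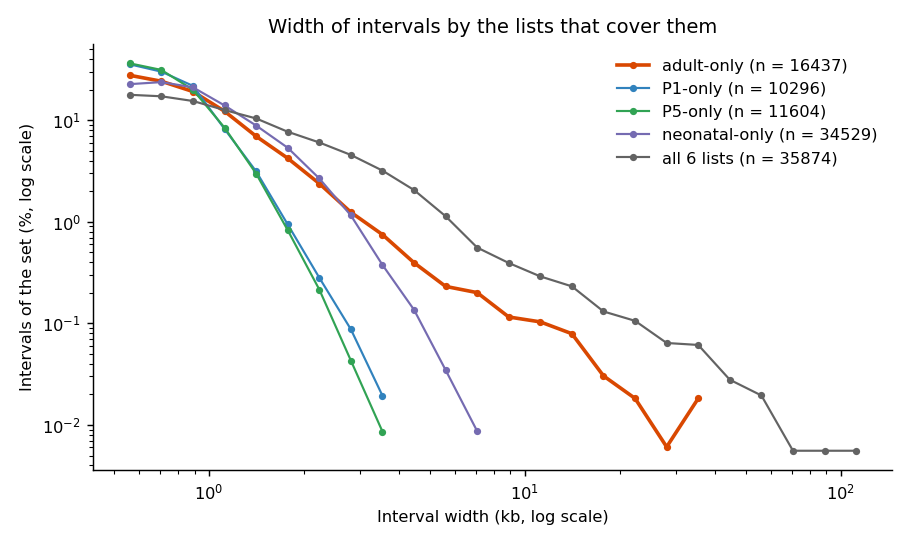
Share of intervals (%, log scale) by width (kb, log scale) for 5 sets defined by the lists that cover them, with 1 point for each width class that holds an interval. The adult-only line runs out to its widest interval of 37062 bp, while the P1-only and P5-only lines end below 4 kb.

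The number of adult-only intervals depended on how peaks were taken. With only peaks above a −log10 p-value of 2 in every list there were 6941 adult-only intervals against 608 neonatal-only ones, 1171 P1-only and 576 P5-only, so that the order of the adult-only and neonatal-only counts turned around. At the width limit, 2156 intervals of 450 to 499 bp fell just outside and 1984 of 500 to 549 bp just inside. Many intervals were also not isolated. Of the 16437, 62.5% touched a neonatal peak on at least 1 side, and 3774 were bordered by neonatal peaks on both sides. Adult peaks of both genotypes that met no neonatal peak anywhere along their length held 2939 intervals (17.88%, 95% Wilson interval 17.3 to 18.5, counting error only), over 2.82 Mb.

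The peaks behind the intervals had low scores in the authors' lists. Their median fold and their share above a −log10 p of 2 were higher than in the lists as a whole, but their share with a low q-value was lower. The rule used these adult lists, so the scores are a description only. In the control adult list 13912 peaks held an adult-only interval, with a median fold over input of 1.92 (quartiles 1.81 and 2.04) beside 1.84 for all autosomal peaks. In the Alb-D2KO adult list 14051 peaks did, with a median fold of 1.91 (quartiles 1.81 and 2.03) beside 1.84. A −log10 p above 2 was listed for 22.9% and 21.6% of these peaks, beside 12.45% and 12.3% of all autosomal peaks. A q-value below 0.05 was listed for 19 (0.137%) and 17 (0.121%) of them, beside 562 (0.204%) and 501 (0.185%) of all. Peaks whose first adult-only interval by position was 5 kb or wider stood higher, with a median fold of 2.19 over 45 control peaks and 2.16 over 66 Alb-D2KO peaks. Of these, 86.7% and 84.8% were above a −log10 p of 2, and 0 had a q-value below 0.05. Peaks that held a wide interval only after a shorter one were not counted here. Among them was a control peak of 150.9 kb in Arl15, with a fold of 2.53. The listed fold is a mean over the whole broad peak, which can be several times as wide as the interval.

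Folds of control and Alb-D2KO adult livers at these sites lay close together, with 1 library of each. The median fold at the intervals was 1.94 in control and 1.935 in Alb-D2KO, and Alb-D2KO was the higher at 7950 of 16437 (48.4%). The difference, Alb-D2KO over control, had quartiles of -0.09 and 0.08 on the log2 scale, and at 0 intervals did the folds differ by a factor of 2 or more. The rule asked for a peak in both genotypes, so sites marked in 1 genotype alone were not among them. Both peaks had to pass the same calling limit, and the listed folds lay in a narrow range (quartiles 1.81 and 2.04 for the control peaks). Closeness of the folds was thus favoured and is a description only. Several intervals can also share 1 peak and its fold.

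By gene section, the intervals as a whole resembled the genome, and the wide ones did not. Intergenic sequence made up 52.8% of adult-only bases and 50.9% of all autosomal bases, introns 42.15% and 41.9%, exons 3.06% and 3.88%, and bases within 500 bp of an annotated transcript start 1.99% and 3.38%. The other sets were richer in intergenic sequence, at 69.0% for P1-only, 67.2% for P5-only, 72.1% for bases in all 6 lists and 79.8% for neonatal-only bases. In adult-only intervals of 5 kb or wider, the intergenic share was 4.72% and introns took 91.3%. Intervals under 5 kb were 56.8% intergenic, and those from adult peaks that met no neonatal peak 44.7%.

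Read over single intervals, the place in genes went with width. Protein-coding gene bodies made up 41.3% of all autosomal bases and 38.75% of adult-only bases. Of adult-only intervals of 500 to 1000 bp, 29.3% lay with most of their width in a protein-coding gene body, and of those of 2 to 5 kb 51.9%. The share was 87.0% (78.6 to 92.4) for 80 of 92 intervals of 5 to 10 kb, and all 40 intervals of 10 kb or wider lay mostly in a protein-coding gene (40 of 40, 91.2 to 100). For bases in all 6 lists the share at 10 kb or wider was 31.2%, which was 106 of 340 intervals. Neonatal-only intervals of 5 to 10 kb were few, and 5 of 15 lay mostly in a gene. Intervals in 1 gene share that gene and often 1 peak, so that they are not independent of each other and the Wilson intervals are too narrow.

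**Figure D2:**
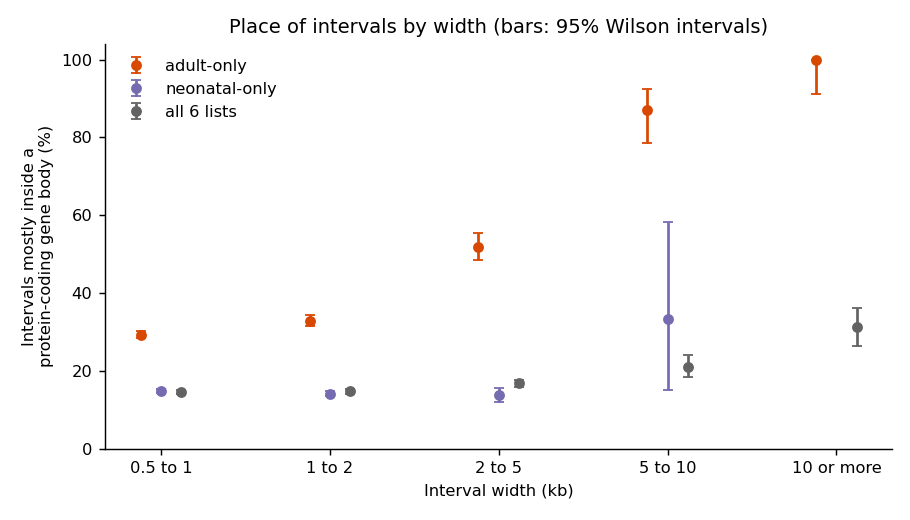
Share of intervals (%) that lie with most of their width in a protein-coding gene body, by interval width (kb), for adult-only, neonatal-only and all-age intervals, with 95% Wilson intervals as bars. The adult-only points climb from 29.3% to 100%, while the all-age points reach 31.2%.

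The deposited gene sections, which give 1 section for a whole peak, were a second view. Of the control adult peaks that held an adult-only interval, 56.2% were annotated as intergenic, 21.6% as intronic and 8% as at a transcription start, against 66.5%, 20.96% and 3.57% of all autosomal peaks in that list. In the Alb-D2KO adult list the shares were 55.75%, 22.2% and 7.71%, against 66.7%, 20.9% and 3.57%. A wide peak can meet several sections and is given one of them, so these shares count peaks and not bases.

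A gene body held an adult-only interval in 1735 of 20780 autosomal protein-coding genes, which is 8.35%. Such genes were long, with a median body of 112.7 kb against 17.6 kb for all. An interval was held by 1.62% of genes under 10 kb, 11.1% of genes of 50 to 100 kb and 69.6% (376 of 540) of genes of 300 kb or longer. Per length the trend was smaller. Adult-only bases covered 0.32% of the bodies of genes under 10 kb, 0.37% at 50 to 100 kb, 0.566% at 100 to 300 kb and 1.10% at 300 kb or longer, and 0.585% in the longest class without the 10 genes described next.

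The bases were gathered in few genes. The 10 genes with the most adult-only bases held 1650 kb, which was 9.94% of all adult-only bases and 25.65% of those in protein-coding bodies. These genes were Wwox, Arl15, Tiam1, Tenm3, Camkmt, Tcf4, Grip1, Slc39a11, Smyd3 and Fhit, on chromosomes 1, 8, 10, 11, 13, 14, 16, 17 and 18. In each of them, both adult lists covered more of the body than any neonatal list, which the choice of bases favours.

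Wwox, which encodes a WW domain oxidoreductase and spans a common fragile site, came first. It lies on chromosome 8 (114439655 to 115352708, plus strand), and 92 adult-only intervals covered 414.7 kb or 45.4% of its body. Peaks covered 1.56% of the body in control P1, 1.65% in Alb-D2KO P1, 3.09% in control P5 and 4.14% in Alb-D2KO P5, but 59.3% in control adult and 56.6% in Alb-D2KO adult. The 3 widest intervals of the genome lay here, with widths of 37062 bp (fold 2.38 in both adult lists), 35210 bp (2.29 in control and 2.28 in Alb-D2KO) and 31857 bp (115310297 to 115342153, 2.29 in both). The first of these was a single peak of 37.06 kb in Alb-D2KO and part of a peak of 62.6 kb in control, and the nearest neonatal peak was 3696 bp away.

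Arl15, which encodes a small GTPase of the ARF-like family, was covered over more of its length. On chromosome 13 (113794505 to 114157461, plus strand) 57 intervals took 235.3 kb, 64.8% of the body. Cover was 1.01% in control P1, 0.673% in Alb-D2KO P1, 1.75% in control P5 and 2.02% in Alb-D2KO P5, against 82% in control adult and 70.3% in Alb-D2KO adult. Its widest interval, 19731 bp, lay in a control peak of 150.9 kb and an Alb-D2KO peak of 51.5 kb.

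Tiam1, an exchange factor that activates the GTPase Rac, had 164.9 kb in 43 intervals on chromosome 16 (46.2% of the body). Neonatal cover of its body was 1.42% in control P1, 1.37% in Alb-D2KO P1, 1.87% in control P5 and 2.08% in Alb-D2KO P5, and adult cover 61.1% in control and 58.9% in Alb-D2KO. Camkmt, which encodes the methyltransferase that modifies calmodulin, had 162.6 kb in 55 intervals on chromosome 17, with 2.95%, 1.91%, 6.1% and 6.88% of the body covered in the neonatal lists in the same order and 63% and 61.9% in the adult ones. In both genes, as in Wwox and Arl15, the lists of the 2 genotypes lay closer to each other than those of newborns and adults did. The rule and the choice of genes favour this, so it is a description only.

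Tcf4, which encodes a basic helix-loop-helix E protein, had 132.7 kb in 22 intervals on chromosome 18 and was covered over 3.62% to 6.34% of its body in the neonatal lists and over 51.9% in control adult and 50.2% in Alb-D2KO adult. Its largest control adult peak at these sites was 154.1 kb wide. Tenm3, a teneurin adhesion protein of developing neurons, had 163.7 kb in 78 intervals on chromosome 8 and more neonatal cover, 8.01% to 9.5%, beside 50.8% and 48.1%. Slc39a11, a zinc transporter of the ZIP family, was at 0.489% to 1.91% in the neonatal lists and 36.4% and 32.6% in the adult ones. Smyd3, a lysine methyltransferase with SET and MYND domains, was at 1.63% to 2.69%, and at 26.9% in control adult and 31.7% in Alb-D2KO adult.

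Grip1 and Fhit stood apart within the 10 genes, since their adult-only bases lay in many short pieces. Grip1, a scaffold protein that binds glutamate receptors, had 109.2 kb in 88 intervals, with 6.46% to 14.9% of the body covered in neonatal lists and 57.3% and 47.4% in adult ones. Fhit, which encodes a diadenosine triphosphate hydrolase and spans another common fragile site, had 68 kb in 69 intervals, only 4.22% of a body of 1612 kb, with neonatal cover of 11.9% to 15.7% and adult cover of 32.7% and 32%.

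**Figure D3:**
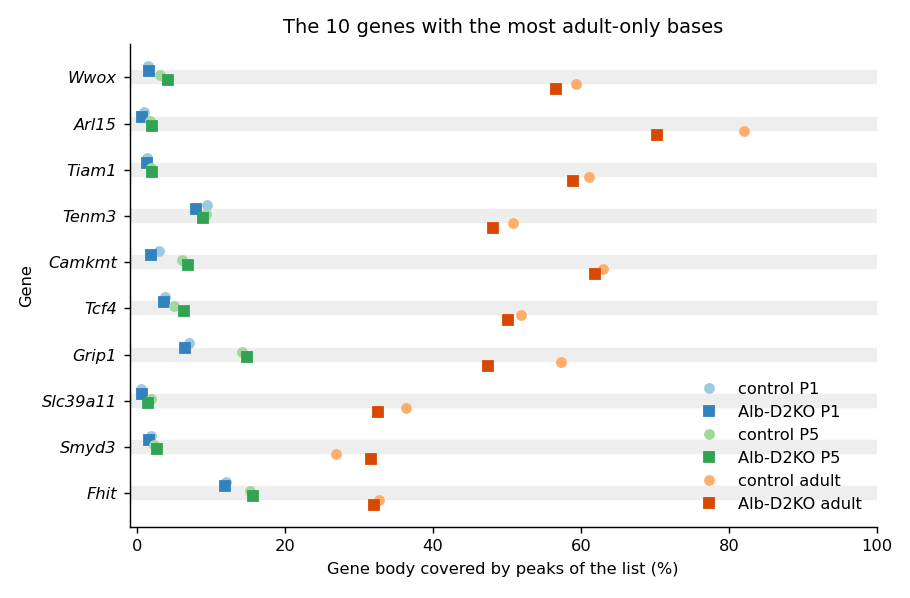
Percent of the gene body covered by listed peaks in each of the 6 lists for the 10 protein-coding genes with the most adult-only bases, 1 point for each list (circles control, squares Alb-D2KO). The neonatal points of Wwox sit between 1.56% and 4.14% and its adult points at 56.6% and 59.3%, and the adult points lie to the right of the neonatal ones in every gene shown.

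Among genes of 10 kb or longer, ranked by the covered share of the body, smaller genes joined the list. Helb, a DNA helicase gene next to Grip1 on chromosome 10 (120083608 to 120112987, minus strand), was 85.4% adult-only. Its body had 0% cover in control P1, Alb-D2KO P1 and control P5, 1.28% in Alb-D2KO P5, 90.5% in control adult and 91% in Alb-D2KO adult. E2f7, an atypical E2F repressor that is known for its part in the polyploidy of hepatocytes, was 64.2% adult-only, with neonatal cover of 0% to 2.66% and adult cover of 75.6% in control and 79.7% in Alb-D2KO. Lrrc8b, a subunit of volume-regulated anion channels, was at 45.3%, and the sperm calcium channel gene Catsper3 at 41.65%. The zinc finger genes Zfp382 and Zfp964 were at 69.2% and 43.3%. Arl15, Tiam1, Wwox and Camkmt filled the other places.

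Of all genes, 30 held 20 kb or more of adult-only bases, on 13 chromosomes. Their median body was 365.5 kb. The smaller of the 2 adult covers of the body ran from 11.6% to 90.5% with a median of 36.6%, and the highest neonatal cover from 1.25% to 23.4% with a median of 5.045%. In all 30 the smaller adult value lay above the highest neonatal one, as the choice of bases favours. Beside those named, the list had Ppm1h, a protein phosphatase, with 64.96 kb, and Bbs9, a part of the BBSome of cilia, with 54.6 kb. It also had Cdyl2, a chromodomain protein, with 32.5 kb, and Ank3, the ankyrin G gene, with 37.5 kb.

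Wide intervals lay mostly inside genes, while protein-coding bodies made up 41.3% of all autosomal bases. Of the 132 intervals of 5 kb or wider, 120 lay mostly in a protein-coding gene, in 33 genes, and 83 overlapped one of the 10 genes named above. Wwox held 20 of them, Arl15 16, Camkmt 10, and Tcf4 and Tiam1 9 each. The median distance to the nearest start of a protein-coding gene was 152.8 kb, 3 of the 132 came within 5 kb of one, and 1 held one. Starts of annotated transcripts, which include those inside a gene body, were held by 12 of the 132 (9.09%). Of the 12 that were not mostly in such a gene, the widest (7668 bp, chromosome 13) began at the end of Arl15.

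Along the genes, adult cover formed blocks rather than filling the whole body. In bins of 10 kb from the gene start, 52 of 91 bins of Wwox were covered over at least 50% in both adult lists, and in 47 of these 52 every neonatal list was below 20%. Arl15 had 27 of 36 such bins, 26 of them with every neonatal list below 20%. The counts were 21 of 36 and 20 in Tiam1, 23 of 37 and 16 in Camkmt, 29 of 62 and 18 in Tenm3, and 16 of 35 and 13 in Tcf4. The first 10 kb of the gene had 0% cover in both adult lists in Tiam1 and Tcf4, and 0% in control adult and 1.89% in Alb-D2KO adult in Wwox. In the adult lists, Arl15 was the one of the 6 genes to pass 10% there, with 31.9% in control adult and 5.41% in Alb-D2KO adult. Neonatal lists reached 20.9% there in Tenm3 (control P1) and 15.2% in Camkmt (Alb-D2KO P5). The first bin with at least 50% in both adult lists began 20 kb from the start in Wwox, 10 kb in Arl15, 70 kb in Tiam1 and Tenm3, 80 kb in Tcf4 and 100 kb in Camkmt. Single bins inside the blocks were also covered in newborn liver, since in Wwox and in Tcf4 there was 1 bin with at least 50% in all 4 neonatal lists.

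**Figure D4:**
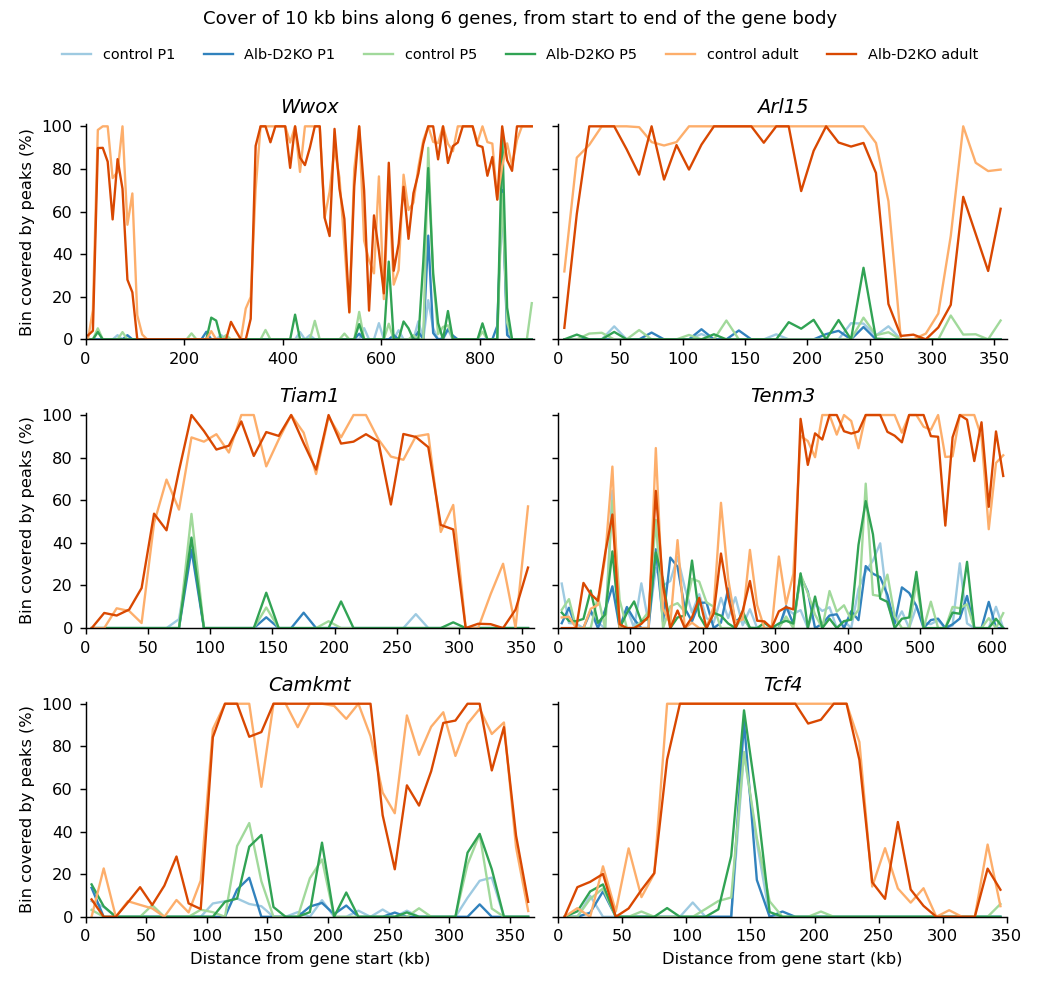
Percent of each 10 kb bin covered by listed peaks (y axis) against distance from the gene start (x axis, kb) in the 6 genes with the most adult-only bases, 1 line for each list. Both adult lines form long blocks, as over 52 of 91 bins of Wwox, and the 4 neonatal lines lie below them over most of these blocks, with separate peaks of their own and more cover in Tenm3 and Camkmt than in Arl15.

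Over all 9670 protein-coding genes of 20 kb or longer, divided into 10 equal parts from start to end, the part at the start held 6.04% of the adult-only bases in these genes, the next 8.39% and the part at the end 10.7%. Without the 10 genes the part at the start held 6.62% and that at the end 11.2%. For bases in all 6 lists these shares were 7.49% and 8.63%, and for neonatal-only bases 8.32% and 10.1%. The part at the start was the lowest of the 10 parts in the adult-only, neonatal-only and all-age sets.

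Transcript starts were seldom inside an adult-only interval. This was so for 95 of 20780 genes (0.457%), and 107 of 16437 intervals (0.651%, 0.539 to 0.786) held one. The share was 0.724% in neonatal-only intervals, 0.677% in all-age, 0.437% in P1-only and 0.284% in P5-only ones. Zinc finger genes made up 16 of the 95, while genes named Zfp were 385 of all 20780. The interval with the highest fold at a start was at Gm4924 on chromosome 10, with a fold of 2.69 in control adult and 2.75 in Alb-D2KO adult, followed by that at Zfp780b on chromosome 7, with 2.62 and 2.60. At Zscan18, another zinc finger gene of chromosome 7, the folds were 2.44 and 2.46. At Fat1, an atypical cadherin, they were 2.39 and 2.46, and at the olfactory receptor gene Olfr212 2.32 and 2.43. The ranked list also had starts of Tcf4 (3 intervals) and a start each of Ank3 and Cmc2. The starts listed for Tcf4, Ank3, Cmc2, Fat1 and Olfr212 were inner ones, which lie inside the gene body and not at the start of the gene.

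The gene lists of liver biology are read beside the 8.35% of all protein-coding genes that held an adult-only interval and the 4.73% of genes of 10 to 50 kb. Of 37 adult hepatocyte genes, with a median body of 11.25 kb, 1 did (2.70%), the steroid dehydrogenase gene Hsd3b5 with 0.532 kb. Peaks covered 0% to 36.1% of Hsd3b5 in the neonatal lists, 17.3% in control adult and 28.3% in Alb-D2KO adult. Of 32 erythroid and blood genes 1 held an interval (3.125%), and that was Kit, the receptor for stem cell factor on blood progenitors and mast cells. In Kit, 7 intervals covered 11.65 kb or 14.25% of the body, and the cover of the body was 0.839% in control P1, 0.49% in Alb-D2KO P1, 1.48% in control P5, 0.321% in Alb-D2KO P5, 26.1% in control adult and 28.6% in Alb-D2KO adult. Of 22 fetal liver genes 5 did (22.7%), but over 0.534% of their summed bodies, below the 0.643% of all protein-coding genes. Most of this was in Grb10, an imprinted adaptor of growth factor receptors, with 5.99 kb and 14.9% and 15.2% adult cover against 1.31% to 4.2% in newborns. Trim71 and Lin28b, which act in the let-7 pathway, and Zhx2, a repressor of alpha-fetoprotein, had 1.49, 0.658 and 1.198 kb. Neonatal and adult cover lay close together in Zhx2, at 0.452% to 3.17% beside 3.28% and 3.12%. In Lin28b they were 2.22% to 7.34% beside 8.96% and 8.29%, and in Trim71 0% to 1.88% beside 8.71% and 7.84%.

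Of 24 thyroid hormone genes 2 held an interval (8.33%), Tshr with 2.01 kb and the coactivator Ncoa2 with 1.29 kb. Of 21 genes of H3K9 methylation 2 did (9.52%), Atf7ip, a partner of SETDB1, with 2.43 kb and the demethylase Kdm4d with 0.804 kb. Neonatal lists covered 6.7% to 7.91% of Tshr, the control adult list 14.3% and the Alb-D2KO adult list 4.66%. Atf7ip was at 11% to 23.3% in the neonatal lists, 21.5% in control adult and 17.8% in Alb-D2KO adult. In the same order Ncoa2 was at 0.086% to 0.78%, 1.99% and 1.59%, and Kdm4d at 6.65% to 10.8%, 14.3% and 15.3%. None of 25 cell cycle genes, 39 Hox genes and 21 Sult genes held an interval. The count was 7 of 100 for cytochrome P450 genes (7%), 4 of 60 for Serpin genes (6.67%) and 1 of 22 each for Ugt and Mup genes (4.545%). All lay below the 8.35% of all genes, but their median bodies were short, at 22.6, 11.3, 29.0 and 3.945 kb in this order. By length, an interval was held by 4.73% of all genes of 10 to 50 kb and 1.62% of those under 10 kb. Only the Ugt share lay below that of its length class, with few genes in each list. Among Serpin genes Serpinb6c had 5.24 kb, and among the P450 genes Cyp4a32 had 1.26 kb. The inactivated gene Dio2 and the gene Alb held none, and both had 0% cover in the adult lists. Peaks covered 4.59% of Dio2 in control P1 and 5.83% and 1.33% of Alb in Alb-D2KO P1 and P5. Peak lists do not show whether Dio2 was deleted.

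Zinc finger genes, many of which encode repressors that bind transposons, held intervals more often and over more of their length than all protein-coding genes. Of 385 Zfp genes 109 held an interval (28.3%), over 1.66% of their summed bodies. Within them adult-only bases covered 2.64% of exon and 1.495% of intron sequence, while over all protein-coding genes the figures were 0.431% and 0.671%. They lay mostly on chromosomes 7 (25 of 92 Zfp genes), 13 (19 of 36) and 17 (16 of 46). Zfp382 was covered over 0% in both P1 lists, 4.6% in control P5, 3.84% in Alb-D2KO P5, 90.7% in control adult and 77.3% in Alb-D2KO adult. Zfp957 and Zfp74 had 6.32 and 5.56 kb, and Zfp697 had 10.3 kb in a body already covered over 15.6% to 25.5% in newborns. Genes of such clusters are alike in sequence, and reads could be shared between copies.

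A list of very long genes, most of them neuronal, held an interval in 34 of 38 (89.5%), over 1.295% of their summed bodies. Among the genes with the most bases in it were Wwox, Fhit and Macrod2, which are long but not particular to neurons. Without Wwox, the other 37 genes were covered over 0.467%, below all protein-coding genes, and the share of all genes of 300 kb or longer that held an interval was 69.6%. Transporter genes of the Slc families had 40 of 358 (11.2%), with 104.8 of their 182 kb in Slc39a11, and the next was Slc14a2 with 7.40 kb.

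Of 1127 olfactory receptor genes 44 held an interval (3.90%), of 326 vomeronasal receptor genes 20 (6.135%), of 64 defensin genes 1 (1.56%) and of 56 lectin and Ly49 genes 8 (14.3%). The share was 8.35% of all genes, 1.62% of those under 10 kb, where the median olfactory receptor gene of 6 kb falls, and 4.73% of those of 10 to 50 kb. Neonatal cover varied among their leading genes, and some had less than the examples given here. In Olfr212 the neonatal lists covered 28.3% to 40.6% of the body and the adult lists 90.1% and 90.3%, and in Olfr1388 3.98% to 32% and 90.8% and 97.7%. Vmn2r57 was covered over 68.4% to 79.1% in newborns and 97.8% and 95.8% in adults, so that its 2.45 kb filled gaps in an area marked at every age. The clustered protocadherin genes had 20 of 56, but they share one long stretch of chromosome 18, so that the same intervals were counted in several genes.

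By place on the chromosomes, adult-only bases averaged 6.93 kb per Mb. Chromosomes 8 (12.4 kb per Mb), 13 (11.6), 18 (10.9) and 10 (10.4) were highest and chromosome 19 (4.10) lowest. Without the 10 genes the range was 4.10 to 9.65 kb per Mb, with chromosome 8 at 7.92 and chromosomes 13, 10 and 18 still above 9. Neonatal-only bases had another order, from 3.88 kb per Mb on chromosome 11 to 29.0 on chromosome 14, and bases in all 6 lists ran from 8.88 on chromosome 11 to 43.8 on chromosome 7. The 10 Mb next to the distal end of each autosome, which are 7.87% of the autosomes, held 12.2% of the adult-only bases but 3.45% of the neonatal-only and 6.74% of the all-age bases. The 10 Mb at the centromere-proximal end, 7.91% of the autosomes, held 9.88% of the adult-only and 11.5% of the all-age bases. Without the 10 genes the distal share was 9.075% and the proximal share 10.5%, so that the order of the ends turned around.

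**Figure D5:**
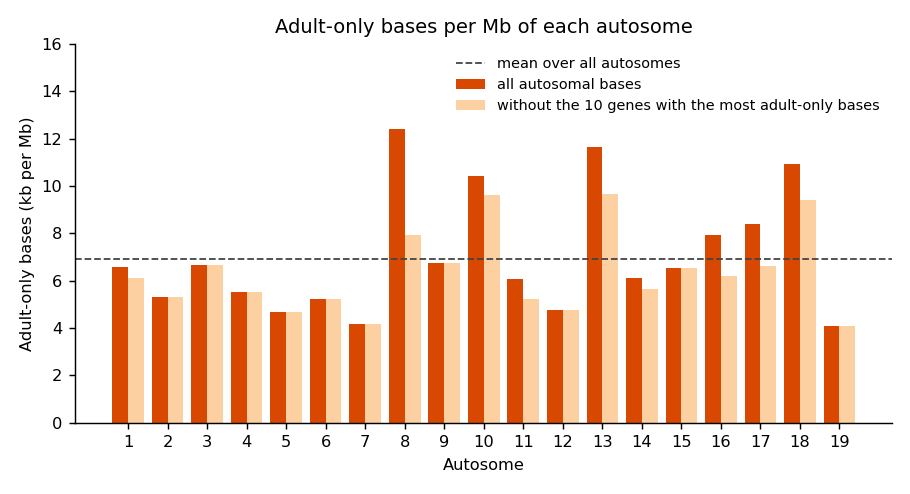
Adult-only bases in kb per Mb on each autosome (bars), with and without the 10 genes with the most adult-only bases, and the mean over all autosomes as a dashed line. Chromosomes 8, 13, 18 and 10 stand highest, at 12.4, 11.6, 10.9 and 10.4 kb per Mb, and chromosome 8 drops to 7.92 without the 10 genes.

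In windows of 100 kb the bases were again gathered. Of 24620 windows 7425 held any, and 149 windows with 10 kb or more held 20.15% of all adult-only bases. Of these 149, 129 overlapped a protein-coding gene and 35 one of the 10 genes, which were chosen by their adult-only bases. Protein-coding bodies made up 41.3% of all autosomal bases. The share of all windows that overlap such a gene was not computed, so the 129 cannot be read as an excess. The 5 fullest windows lay in Wwox, Arl15 (2 windows), Tcf4 and Tiam1, with 78.2 to 90.2 kb adult-only. In the fullest, chromosome 8 from 114800001 to 114900000, peaks covered 0.544 kb in control P1, 0 kb in Alb-D2KO P1, 0.441 kb in control P5 and 1.16 kb in Alb-D2KO P5, but 97.1 kb in control adult and 93 kb in Alb-D2KO adult. In the next, chromosome 13 from 113900001 to 114000000, the neonatal lists had 0.49 to 2.47 kb and the adult lists 100 kb and 93.96 kb.

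In base composition the adult-only intervals were near the genome, and the wide ones were richer in CG pairs and poorer in repeats. G and C made up 41.9% of adult-only bases and 41.9% of all autosomal bases, with 8.54 and 8.51 CG pairs per kb. The other sets were lower, at 39.1% and 5.45 per kb for P1-only, 38.2% and 5.44 for P5-only, 35.1% and 4.26 for neonatal-only and 38.4% and 7.17 for bases in all 6 lists. Intervals of 5 kb or wider were at 44.6% with 14.1 CG pairs per kb. Soft-masked repeats were 37.3% of adult-only bases, 67.6% of those in all 6 lists, 33.5% of the autosomes and 19.8% of the wide intervals.

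The same values were computed inside and outside the genes with the most adult-only bases. Adult-only bases inside the 10 genes had 44.2% G and C, 13.8 CG pairs per kb and 19.8% soft-masked bases. The rest of the same 10 genes had 43.0%, 10.8 per kb and 25.5%, and all protein-coding bodies 43.1%, 10 per kb and 27.0%. Adult-only bases outside the 10 genes had 41.6%, 7.96 per kb and 39.2%. The GC content of a sequence can alter its yield in a library, and its part in these values was not tested.

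The intervals with the highest folds differed from the widest ones. The first, an intergenic one of 730 bp on chromosome 12, had a fold of 3.77 in control adult and 4.69 in Alb-D2KO adult, and a pileup, the mean fragment coverage as listed, of 99.79 and 171.29. Both pileups are far above those of the other intervals named here, which were under 10, and the interval lay beside a neonatal peak with no gap. The next were an intergenic one on chromosome 8 (129293921 to 129294863), at 2.86 in control and 2.80 in Alb-D2KO, and a pair on chromosome 13 (74413424 to 74414094, and 74457772 to 74458499 in an intron of E430024I08Rik) that shared 1 peak, at 2.76 and 2.82. The fifth, intergenic on chromosome 8 (69345691 to 69346415), was at 2.72 and 2.80. All 5 touched a neonatal peak, so that they were edges or gaps of areas marked in newborn liver too.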

How the data were processed

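The series holds 12 samples of mouse liver, 6 H3K9me3 and 6 input libraries, 1 of each for every genotype and age. The authors aligned reads with BWA to mm10 (GRCm38), called broad peaks with MACS2 over the input of the same sample at a p-value limit of 0.05 and annotated them with GENCODE. The deposited lists give each peak's pileup (signal, as fragment coverage in a scaling not stated), −log10 p-value, −log10 q-value and fold enrichment, a linear ratio over input. The 3 lists called on Alb-D2KO over control were not used here. Whether reads of several animals were merged before calling is not given in the sources used here, so each list was taken as 1 library.

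Coordinates are 1-based on GRCm38. Of 22370 transcripts named in a list 21117 were matched to GENCODE M21, with starts identical in 100% and listed ends 1 base beyond the reference in 100%, so the listed end minus 1 is printed. Peaks were painted on the 19 autosomes base by base with Python 3.11.15, numpy 2.4.6 and pandas 2.3.3, and the interval rule was tested on simulated lists against bedtools 2.31.1. Sections were assigned in the order transcript start (within 500 bp), exon, intron and intergenic, with GENCODE M21. Sequence, CG pairs and soft-masked repeats come from the RefSeq copy of GRCm38. No read counts are given in the lists, which leaves the depth unknown. The lowest listed pileup was 4.00 in the neonatal lists and 5.00 in the adult ones, and autosomal cover was 461.5 to 497.7 Mb in the neonatal and 382.3 to 395.6 Mb in the adult lists. With 1 library per group no test was made. Shares have 95% Wilson intervals with intervals or genes as units.

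The genes and intervals named are the 10 widest intervals, the 5 with the highest smaller fold of both adult lists, the 10 genes with the most adult-only bases, the 10 with the largest covered share among genes of 10 kb or longer, the 10 intervals at a transcript start with the highest smaller fold, the 5 fullest windows of 100 kb, up to 4 genes of each gene list, Dio2 and Alb. Ppm1h, Bbs9, Cdyl2 and Ank3 as a gene of 20 kb or more were named after their values were seen. The members and lists were chosen with earlier results of these data known. Alternatives were other width limits, a −log10 p limit of 2, wider neonatal peaks, adult peaks free of neonatal overlap, and leaving out lists or genes. Some named genes and sequences that this rule selects are not reported here.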

Additional observations from a re-analysis of the deposited data

How the results depend on the processing

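The number and length of adult-only intervals moved with the rule, with the cause not tested beyond the change in the rule itself. With a minimum of 200 bp there were 35906 intervals, and with 1000 bp 4744 over 8.46 Mb. The control adult list alone gave 60289 over 60.4 Mb and the Alb-D2KO adult list alone 57266 over 57.0 Mb. Adult peaks free of neonatal overlap left 2939 over 2.82 Mb, and neonatal peaks extended by 500 bp 7018 over 8.05 Mb. A −log10 p above 2 in both adult lists left 2634 over 4.13 Mb, and the same limit in every list 6941 over 23.9 Mb. Leaving out a neonatal list gave 20534 to 22247 intervals over 20.6 to 22.65 Mb. It left 141 to 155 of 5 kb or wider, of which 85.8% to 89.6% lay mostly in a protein-coding gene. These values for wide intervals were chosen after seeing the data.

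With 1000 bp, adult peaks free of neonatal overlap and adult −log10 p above 2, in this order, the intergenic share was 44.5%, 44.7% and 36.1%, and 3.87%, 3.19% and 1.98% of genes held an interval. GC content was 42.65% with 1000 bp and 43.6% with adult −log10 p above 2, and 1.24% and 1.06% of intervals held a transcript start. The other sets had 1290 P1-only, 1443 P5-only and 11200 neonatal-only intervals at 1000 bp, and 1171, 576 and 608 with −log10 p above 2 in every list.

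The following were also chosen after seeing the data. Adult peaks free of neonatal overlap left 21 intervals of 5 kb or wider, 95.2% of them mostly in a gene. Without the 10 genes there were 49, 77.55% of them in a gene, and the intergenic share of all adult-only bases was 58.6%. Wwox had the most adult-only bases under all 12 alternatives to the interval rule, with 111.5 to 487.2 kb, and 6 to 10 of the 10 genes stayed among the first 10. No paired analysis was possible because each group has 1 library and no test was made.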
